A study of Homo sapiens with 6 samples.

Results

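The miR-183/96/182 cluster is a group of 3 microRNA hairpins that lie next to each other on human chromosome 7. The mature arms taken as its members were hsa-miR-183-5p, hsa-miR-183-3p, hsa-miR-96-5p and hsa-miR-182-5p, found by their names in the count tables. The rule itself uses no measured value, but the cluster was chosen with earlier results of these data known. They are 4 of 28846 small RNA entries and 4 of 2596 microRNA entries. With TMM scaling miR-96-5p fell to 51.1% of its control level in RUNX1 over-expressing cells, and the other 3 members were not altered. Of all tested microRNAs, 22.6% were called lower with the same scaling and the thresholds of the study, given below. By counts per mature arm, the order was miR-182-5p over miR-183-5p over miR-96-5p over miR-183-3p in every library. miR-96-3p, which comes from the same hairpin as miR-96-5p and is not a member, fell as well.

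Small RNA was sequenced from K562 cells, an established human erythroleukemia line that can take on erythroid or megakaryocytic features. Control cells carried the empty lentiviral vector SIEW with GFP, and RUNX1 cells carried the SIEW vector with human RUNX1 and GFP, so both groups were transduced and both carried GFP. There were 3 samples of each group from independent transductions, taken after 10 days of culture, and libraries were made from 1000 ng of total RNA. The comparison addresses which microRNAs are altered when RUNX1, a transcription factor of the megakaryocytic lineage, is over-expressed. The study thus compares vector-driven RUNX1 with no added RUNX1 in 1 leukemic line. RUNX1 mRNA is not a small RNA, and its level was not analysed here.

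The total counts were 1618248 to 6193319 in the control and 7918551 to 15245007 in the RUNX1 libraries, and microRNAs took 81.4% to 82.1% and 89.5% to 91.9% of them. RUNX1 replicate 3 stood apart from the other RUNX1 libraries. The chi-square of its counts against theirs, divided by the degrees of freedom, was 545 and 372, against 67.4 between RUNX1 replicates 1 and 2 and 11.2 to 25.9 between control replicates. This value grows with library depth, so those of the shallower control libraries are not directly comparable. All 4 erythroid marker microRNAs of K562 cells were present in each library, with summed levels of 4427 to 5062 CPM in the control and 2332 to 3696 CPM in the RUNX1 samples. Of these miR-451a, miR-144-5p and miR-486-5p were lower in the RUNX1 samples, and miR-144-3p was higher, with a log2 fold change of 1.02. The study reports mature miR144 as lower by q-RT-PCR, the only microRNA so measured whose direction differed from its sequencing. CPM stands for counts scaled to equal library size by TMM, a method that assumes that most small RNAs do not change. With the thresholds of the study, given below, 57.6% of the tested small RNAs were altered, so that assumption may not hold here. Of 12 marker microRNAs of other cell types, miR-206 of muscle and miR-124-3p of neural cells were at 0 in all 6 libraries. The summed level of the 12 was 45.8 to 55.3 CPM in the control and 179 to 195 CPM in the RUNX1 samples. Most of it was on the 4 epithelial markers, with 36.8 to 45.1 CPM in the control and 148 to 165 CPM in the RUNX1 samples, among which miR-205-5p had a mean of 0.723 CPM and 70.4 CPM. The 2 markers of sensory or pigment epithelium summed to 7.81 to 11.0 CPM in the control and 22.2 to 30.1 CPM in the RUNX1 samples, nearly all of it miR-204-5p. The 3 muscle markers summed to 0 to 0.124 CPM in the control and 4.64 to 6.50 CPM in the RUNX1 samples, nearly all of it miR-1. miR-1 had 0, 1 and 0 counts in the control and 70, 29 and 42 counts in RUNX1 libraries, a log2 fold change of 6.26. The part of these shifts in the results on the cluster was not tested.

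A microRNA hairpin is cut out of a longer primary transcript and then opened into a 5p and a 3p arm, of which usually 1 is loaded into an Argonaute protein and kept. The loaded arm finds its target mRNAs mainly through its seed, bases 2 to 8 counted from the 5′ end, and lowers their stability and translation. The hairpins of the miR-183/96/182 cluster are thought to be cut from a common primary transcript. The cluster is best known from the sensory cells of the eye and the inner ear, where changes in the seed of miR-96 cause hearing loss. In blood cells and tumours its arms are known to act on the mRNAs of FOXO transcription factors, and miR-96-5p has been described as acting on γ-globin mRNA in erythroid cells.

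The sequences of the 4 members are shown because they tell which of the arms could share targets. Capitals mark the seed, and the sequences are those of RefSeq on GRCh38.p14, where 4 of 4 members were matched by name.
hsa-miR-183-5p: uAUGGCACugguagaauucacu
hsa-miR-96-5p: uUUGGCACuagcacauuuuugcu
hsa-miR-182-5p: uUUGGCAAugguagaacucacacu
hsa-miR-183-3p: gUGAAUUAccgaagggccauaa

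The 5p arms were alike but not equal in the seed. With positions counted from 1 at the 5′ end and the first-named arm given first, the seeds of miR-183-5p and miR-96-5p differed by A2U, those of miR-96-5p and miR-182-5p by C8A, and those of miR-183-5p and miR-182-5p by both A2U and C8A. Beyond the seed the likeness ran in another order. Aligned from base 1 without gaps, miR-183-5p and miR-182-5p were identical at 18 of 22 positions, miR-183-5p and miR-96-5p at 13 of 22, and miR-96-5p and miR-182-5p at 12 of 23. The arm closest to each of the others in the seed was therefore miR-96-5p, and the closest pair over the whole length was miR-183-5p with miR-182-5p. miR-183-3p, the opposite arm of the miR-183 hairpin, had a seed of its own.

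All 3 hairpins lie on the minus strand of chromosome 7, given here on GRCh38 by gene symbol from GENCODE 29 and not in the hg19 coordinates of the submitters' processing notes. In the direction of transcription MIR183 (chr7:129774905-129775014, 110 bp) comes first. MIR96 (chr7:129774692-129774769, 78 bp) follows after 135 bases, and MIR182 (chr7:129770383-129770492, 110 bp) after another 4199 bases. The mature arms are at chr7:129774967-129774988 for miR-183-5p, chr7:129774928-129774949 for miR-183-3p, chr7:129774739-129774761 for miR-96-5p and chr7:129770447-129770470 for miR-182-5p. The cluster spans 4632 bases, and no annotated gene overlaps any of its hairpins. The nearest genes are NRF1, which codes for a transcription factor of mitochondrial genes, 13300 bases beyond MIR182, and the lincRNA AC084864.1, 8355 bases before MIR183. miR-96-5p, the arm that fell, thus comes from the middle hairpin. The hairpins on both sides of it gave arms that were not altered with TMM scaling, though all 4 members were called lower with library size only.

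miR-182-5p was the most abundant member. It had 77019, 287008 and 301293 counts in control replicates 1, 2 and 3, and 432105, 256431 and 316005 counts in RUNX1 replicates 1, 2 and 3. On the TMM scale these were 36818, 35602 and 39659 CPM in the control and 37469, 41008 and 46103 CPM in the RUNX1 samples. The groups overlapped, with the lowest RUNX1 sample inside the control range and RUNX1 replicate 3 the highest of all. The mean was 37360 ± 2082 CPM in the control and 41527 ± 4341 CPM in the RUNX1 samples (n = 3 each, SD). The log2 fold change was 0.15 with a standard error of 0.121 (edgeR quasi-likelihood test, adjusted p = 0.307), and its 95% interval ran from -0.12 to 0.43. Among all microRNAs miR-182-5p ranked 5 to 7 in the control and 6 to 8 in RUNX1 libraries.

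miR-183-5p, the arm kept from the first hairpin, had 11039, 48561 and 48490 counts in the control and 70675, 44620 and 32500 counts in the RUNX1 libraries. Its level was 5277, 6024 and 6383 CPM in the control and 6128, 7136 and 4742 CPM in the RUNX1 samples. RUNX1 replicate 2 was the highest and RUNX1 replicate 3 the lowest of the 6, so that the RUNX1 samples enclosed the control range. The means were 5895 ± 564 CPM in the control and 6002 ± 1202 CPM in the RUNX1 samples (n = 3 each, SD). The log2 fold change was 0.03 with a standard error of 0.163 (edgeR, adjusted p = 0.902) and a 95% interval of -0.34 to 0.40. Without RUNX1 replicate 3 it was 0.25 (edgeR, adjusted p = 0.0203), past the P-value but under the fold of the call.

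miR-183-3p is the minor arm of the same hairpin. It had 148, 664 and 545 counts in the control and 958, 431 and 475 counts in RUNX1 libraries, which gives a counting error (1 SD) of 8.22% in the smallest library. Its level was 70.7, 82.4 and 71.7 CPM in the control and 83.1, 68.9 and 69.3 CPM in the RUNX1 samples. The groups overlapped, with 1 RUNX1 sample at the top and the others at the bottom of the 6. The log2 fold change was -0.03 with a standard error of 0.141 (edgeR, adjusted p = 0.889) and a 95% interval of -0.34 to 0.29.

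miR-96-5p, the arm described on γ-globin and FOXO mRNAs, had 2416, 9186 and 8419 counts in the control and 7715, 3998 and 2947 counts in RUNX1 libraries. Its level was 1155, 1139 and 1108 CPM in the control and 669, 639 and 430 CPM in the RUNX1 samples. All 3 RUNX1 samples lay below all 3 control samples. The control samples were close to each other, with a coefficient of variation of 2.10%, and the RUNX1 samples spread more widely, with 22.5%, RUNX1 replicate 3 being the lowest. The means were 1134 ± 23.8 CPM and 579 ± 130 CPM (n = 3 each, SD). The log2 fold change was -0.97 with a standard error of 0.173 and a 95% interval of -1.36 to -0.58 (edgeR, adjusted p = 0.00116 over all 947 tested small RNAs). Without RUNX1 replicate 3 it was -0.71 and still called. In rank miR-96-5p went from 49 to 51 among the microRNAs of the control libraries to 75 to 88 in the RUNX1 libraries. In bulk RNA, fewer cells with an arm and less of it per cell cannot be told apart.

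**Figure D1:**
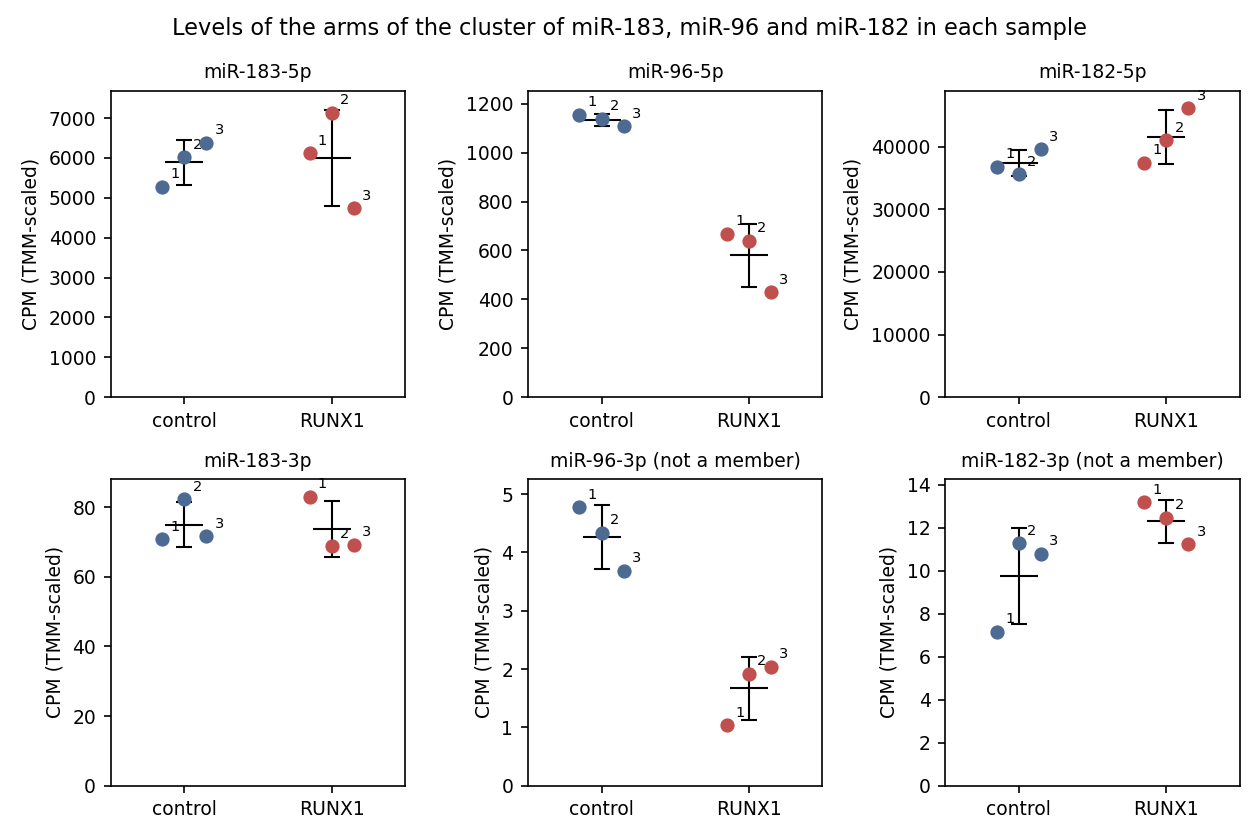
Level of each cluster arm in each sample, in CPM after TMM scaling on a linear axis from 0, with the replicate numbers beside the points. Horizontal lines are means and bars are the SD of 3 samples. The points of miR-96-5p and miR-96-3p do not overlap between control and RUNX1, and those of miR-183-5p, miR-183-3p, miR-182-5p and miR-182-3p do. With scaling by library size only, all 4 members were called lower.

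With the thresholds of the study, which ask for a P-value below 0.05 together with a change by 0.5 or more on the log2 scale, 1 of 4 members was lower, none was higher and 3 were not altered (edgeR). DESeq2 gave the same counts, and at an unadjusted P below 0.05 without regard to the fold 0 members were higher with either tool. These calls are read against a comparison in which 56% of the 598 tested microRNAs were altered, 33.4% higher and 22.6% lower, and 57.6% of all tested small RNAs. By edgeR's adjusted p under 0.05 at the same fold, 20.7% of the microRNAs were lower, and miR-96-5p was among them. Samples of the groups did not overlap, in the lower direction, for 25.4% of the microRNAs. A fall like that of miR-96-5p was therefore common among microRNAs in these samples. Of the 598 tested microRNAs, 96 had a lower fold change than miR-96-5p, 268 than miR-183-3p, 282 than miR-183-5p and 317 than miR-182-5p.

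**Figure D2:**
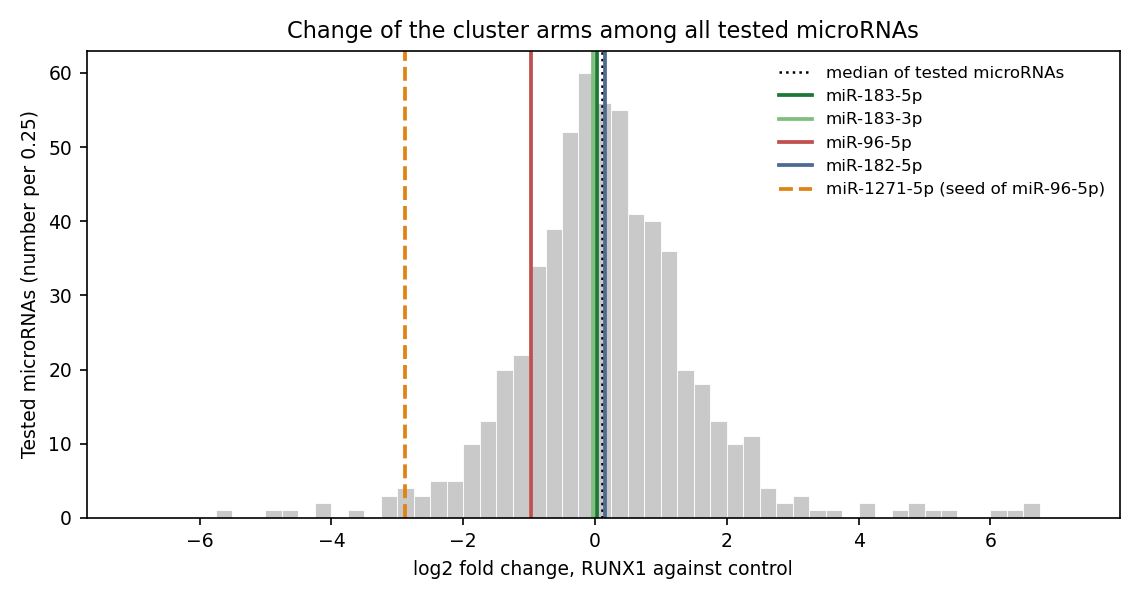
Number of tested microRNAs by their log2 fold change between RUNX1 and control samples, in steps of 0.25, with vertical lines for the 4 members, for miR-1271-5p and for the median of all tested microRNAs. The lines of miR-183-5p, miR-183-3p and miR-182-5p lie beside the median of 0.11, that of miR-96-5p lies at -0.97 and that of miR-1271-5p at -2.89.

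The sign of the 3 members that were not altered depended on how the libraries were scaled. The TMM factors, which multiply the library sizes, were 1.23 to 1.31 for control and 0.735 to 0.866 for RUNX1 libraries. With library size as the only scaling, the median log2 fold change of the tested microRNAs moved from 0.11 to -0.59, and all 4 members were called lower, with -0.69 for miR-183-5p, -0.73 for miR-183-3p, -1.69 for miR-96-5p and -0.54 for miR-182-5p. That scaling also turned the calls among all microRNAs from 200 higher and 135 lower to 91 higher and 292 lower, and scaling on microRNAs only gave 161 higher and 175 lower. A change of scaling shifts the log2 fold changes of all microRNAs by nearly the same amount. The place of a member relative to the median microRNA of the same scaling is therefore nearly fixed by the calculation. It does not test the scaling. miR-96-5p was at -1.07 with TMM and -1.10 with library size only, and miR-182-5p was at 0.05 with both. miR-183-5p was at -0.08 and -0.10, and miR-183-3p at -0.13 and -0.14. The other scalings moved these 3 members by less. RLE factors and DESeq2 turned miR-183-3p to 0.05, and scaling on microRNAs only turned miR-183-5p to -0.17 and miR-182-5p to -0.03, none of them called.

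**Figure D3:**
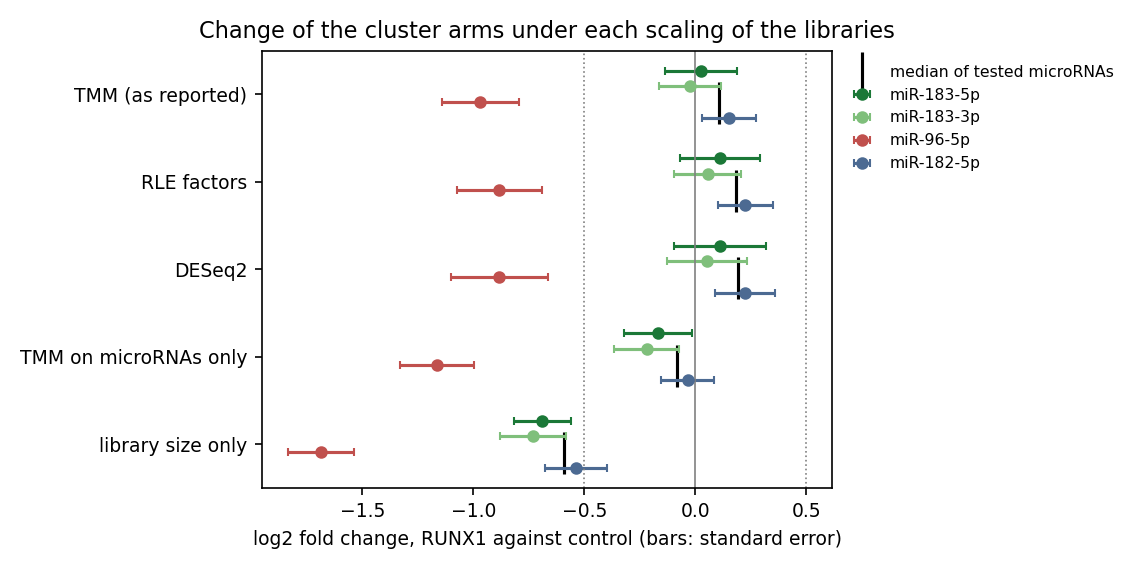
Log2 fold change between RUNX1 and control samples of the 4 members under 5 scalings of the libraries, with bars for the standard error and a black tick for the median of the tested microRNAs under that scaling. Dotted lines mark the fold of the call. All points shift to lower values with library size only, where miR-183-5p and miR-182-5p change sign. miR-183-3p changes sign with RLE factors and DESeq2, and miR-183-5p and miR-182-5p with scaling on microRNAs only. The point of miR-96-5p stays apart from those of the other members under each scaling, since a scaling shifts all points by nearly the same amount.

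Ratios between arms of the same library need no scaling and compare the members directly. For every 100 reads of miR-183-5p there were 21.9, 18.9 and 17.4 reads of miR-96-5p in control replicates 1, 2 and 3, and 10.9, 8.96 and 9.07 reads in RUNX1 replicates 1, 2 and 3. All RUNX1 samples lay below all control samples, and RUNX1 replicate 3 lay beside replicate 2 here. The ratio was 2.01-fold lower, a difference of -1.01 on the log2 scale between -2.37 ± 0.169 in the control and -3.38 ± 0.160 in the RUNX1 samples (n = 3 each, SD, exact two-sided permutation test, p = 0.1, adjusted p = 0.2 over 4 ratios). A p of 0.1 is the smallest that 3 samples against 3 allow, so no ratio could pass 0.05.

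For each read of miR-96-5p there were 31.9, 31.2 and 35.8 reads of miR-182-5p in the control and 56.0, 64.1 and 107 reads in the RUNX1 samples. The groups did not overlap, and RUNX1 replicate 3 was far above the others. The ratio was 2.21-fold higher in the RUNX1 samples, a difference of 1.14 on the log2 scale between 5.04 ± 0.106 and 6.19 ± 0.494 (n = 3 each, SD, exact two-sided permutation test, p = 0.1, adjusted p = 0.2). It was 0.86 without RUNX1 replicate 3.

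The ratio of the most abundant arms did not separate the groups. For each read of miR-183-5p there were 6.98, 5.91 and 6.21 reads of miR-182-5p in the control and 6.11, 5.75 and 9.72 reads in the RUNX1 samples. RUNX1 replicate 1 lay inside the control range, replicate 2 just below and replicate 3 above it. The difference was 0.14 on the log2 scale (exact two-sided permutation test, p = 0.9), and it was -0.10 without RUNX1 replicate 3. The ratio of the arms of the miR-183 hairpin did not separate the groups either. For 100 reads of miR-183-5p there were 1.34, 1.37 and 1.12 reads of miR-183-3p in the control and 1.36, 0.966 and 1.46 reads in the RUNX1 samples, a difference of -0.04 on the log2 scale (exact two-sided permutation test, p = 0.9).

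The makeup of the cluster restates these ratios, since it is drawn from the same counts. Of the counts on the 4 members, miR-96-5p took 2.67%, 2.66% and 2.35% in the control and 1.51%, 1.31% and 0.837% in the RUNX1 samples, without overlap. miR-182-5p took 84.0% ± 0.950 in the control and 86.1% ± 3.23 in the RUNX1 samples, and miR-183-5p took 13.3% ± 0.966 and 12.6% ± 2.90 (n = 3 each, SD), with overlapping samples. The cluster as a whole took 6.82%, 6.90% and 7.06% of the microRNA counts in the control and 3.65%, 3.93% and 4.97% in the RUNX1 samples. Its mean share was 6.93% ± 0.120 in the control and 4.18% ± 0.692 in the RUNX1 samples (n = 3 each, SD), a difference of -2.74 percentage points by the exact two-sided permutation test (p = 0.1, the smallest possible). The share of a library depends on what else is in it. Without the counts of miR-10a-5p, the most abundant microRNA, the difference was -1.53 percentage points, and the samples still did not overlap.

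The hairpins of miR-96 and miR-182 also gave counts on their opposite arms, which are not members. The MIR96 hairpin is shown because both of its arms fell, with the mature arms in capitals, from RefSeq on the minus strand at chr7:129774692-129774769 of GRCh38.p14.
MIR96: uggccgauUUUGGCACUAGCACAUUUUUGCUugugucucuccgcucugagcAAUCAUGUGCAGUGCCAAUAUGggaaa

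miR-96-3p is a rare arm, with 10, 35 and 28 counts in the control and 12, 12 and 14 counts in RUNX1 libraries, so that counting error alone was 16.9% to 31.6%. Its level was 4.78, 4.34 and 3.69 CPM in the control and 1.04, 1.92 and 2.04 CPM in the RUNX1 samples. The groups did not overlap, although the RUNX1 libraries were the deeper ones. The log2 fold change was -1.38 with a standard error of 0.321 and a 95% interval of -2.10 to -0.65 (edgeR, adjusted p = 0.00492), and it stood at -1.48 relative to the median microRNA. The reads of miR-96-3p for 100 reads of miR-96-5p were 0.414, 0.381 and 0.333 in the control and 0.156, 0.300 and 0.475 in the RUNX1 samples. These overlapped (exact two-sided permutation test, p = 0.6), and this ratio was added after the data were seen. miR-182-3p had a level of 7.17, 11.3 and 10.8 CPM in the control and 13.2, 12.5 and 11.2 CPM in the RUNX1 samples. These overlapped too, and the log2 fold change was 0.28 with a standard error of 0.205 (edgeR, adjusted p = 0.267).

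Both arms were tested for 144 hairpins. The fold changes of the 3p and 5p arms differed by -0.05 for miR-183, 0.13 for miR-182 and -0.41 for miR-96 on the log2 scale. The median size of this difference over the 144 hairpins was 0.603, with quartiles of 0.240 and 1.12. A smaller difference was seen for 7 hairpins in the case of miR-183, for 22 in that of miR-182 and for 52 in that of miR-96. Both arms were lower for 12 hairpins, miR-96 among them, and neither arm was altered for 33, miR-183 and miR-182 among them. The arms of each cluster hairpin thus differed by less than the median hairpin.

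One further microRNA entry had the seed of a member. miR-1271-5p shares the seed of miR-96-5p and comes from MIR1271 on chromosome 5 (chr5:176367960-176367981, plus strand, RefSeq on GRCh38.p14). It is shown because it can be read beside miR-96-5p as an arm of the same seed from another locus, with identity at 9 of 22 positions.
hsa-miR-1271-5p: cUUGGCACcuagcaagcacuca

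miR-1271-5p was rare, with 10, 118 and 135 counts in the control and 26, 14 and 5 counts in RUNX1 libraries. Its level was 4.78, 14.6 and 17.8 CPM in the control and 2.25, 2.24 and 0.729 CPM in the RUNX1 samples, without overlap. Control replicate 1, the smallest library, was nearest to the RUNX1 samples. The log2 fold change was -2.89 with a standard error of 0.475 (edgeR, adjusted p = 0.000714). Both entries found with this seed, miR-96-5p and miR-1271-5p, were thus lower, where 22.6% of all tested microRNAs were lower. Their summed level was set almost wholly by miR-96-5p, with means of 1134 CPM in control against 12.4 CPM for miR-1271-5p. The seeds of miR-183-5p, miR-183-3p and miR-182-5p were found on no other entry among the 2262 of 2576 named microRNA entries matched to a sequence. The remaining entries could not be searched.

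MicroRNA genes near the cluster were also counted. Within 5 Mb on either side there were 8 genes with 11 arms in the tables. Of these, 9 arms had counts and 5 were tested, of which 2 were higher, 1 lower and 2 not altered, where 33.4% of all tested microRNAs were higher and 22.6% lower. Their median log2 fold change was 0.20, beside 0.11 for all tested microRNAs. miR-29a-3p, which acts on collagen and DNA methyltransferase mRNAs, had 410, 381 and 392 CPM in the control and 2104, 2202 and 1647 CPM in the RUNX1 samples. It rose by a log2 fold change of 2.33 with a standard error of 0.147 (edgeR, adjusted p = 2.66e-06). miR-335-3p, from an intron of MEST, had 533, 469 and 470 CPM in the control and 95.4, 95.8 and 148 CPM in the RUNX1 samples. Its log2 fold change was -2.12 with a standard error of 0.194 (edgeR, adjusted p = 2.29e-05). The other tested neighbours were all under 100 CPM and are named after their values were seen. They were miR-29a-5p, at 2.11 and called higher, and miR-335-5p at -0.15 and miR-29b-1-5p at 0.20, both not altered. The most abundant neighbours of the cluster thus changed in opposite directions. miR-29b-3p, which had counts but was not tested, can also come from a second gene on another chromosome.

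A list of 7 other microRNAs known to act on FOXO mRNAs was mostly higher with TMM scaling, unlike miR-96-5p. The list is a selection made with earlier results of these data known. It leaves out the cluster arms, of which miR-182-5p at 0.15 and miR-183-5p at 0.03 were not altered. Of the 7 on the list, all tested, 5 were higher, 1 was lower and 1 was not altered. Among all tested microRNAs 33.4% were higher and 22.6% lower. The median log2 fold change of the list was 0.90, beside 0.11 for all tested microRNAs. miR-27b-3p rose from 7552 ± 95.3 CPM to 14806 ± 1167 CPM (n = 3 each, SD), a log2 fold change of 0.97 with a standard error of 0.114. miR-27a-3p, which is also known to act on RUNX1 mRNA, rose by 0.90 with a standard error of 0.146. miR-30d-5p rose by 0.80 with a standard error of 0.110 and the myeloid miR-223-3p by 0.91 with a standard error of 0.223. With library size only these 4 were not called, at 0.27, 0.18, 0.10 and 0.19 in the same order. miR-132-3p was at -0.46 with a standard error of 0.133, just short of the fold of the call (edgeR, adjusted p = 0.0142), and it was called lower at -0.65 with scaling on microRNAs only. The lower member of the list was miR-212-3p at -0.99 and the fifth higher one miR-155-5p at 0.95, both under 100 CPM and named after their values were seen.

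The tested microRNAs whose levels followed each member most closely over the 6 samples were found by the root mean square difference of centred log2 CPM. For miR-96-5p they were miR-493-3p, at a distance of 0.119, miR-330-3p at 0.134 and miR-145-3p at 0.144. Their log2 fold changes were -0.95, -0.74 and -0.81, a fall that the choice by likeness brings with it, and miR-330-3p lost the call without RUNX1 replicate 3. The nearest to miR-183-5p were miR-362-5p at 0.0850, miR-1307-5p at 0.0901 and miR-615-5p at 0.102. Those of miR-182-5p were miR-98-5p at 0.0796, miR-93-5p at 0.0911 and miR-151a-3p at 0.0966, and those of miR-183-3p were miR-93-3p at 0.0766, miR-6777-3p at 0.0866 and miR-3609 at 0.101. No cluster arm could enter these lists, and the 9 microRNAs nearest to the other members were not altered, as the choice by likeness to unaltered arms makes likely.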

How the data were processed

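Small RNA libraries of 3 control and 3 RUNX1 samples were made with the TruSeq kit, read on a HiSeq2000, demultiplexed with CASAVA 1.8.2 and counted on the OASIS platform. The deposited values are whole-number counts per small RNA that the authors did not normalize. hg19 is named in the submitters' processing notes. The aligner and the handling of reads with several matches are not given in the sources used here, so arms that share reads with like sequences are uncertain. The counts are per mature arm and were not divided by length, since the arms differ by few bases. Groups and replicate numbers came from the sample titles. Library names carry different letters for control and RUNX1. Where these stand for preparations, the effect of preparation and that of RUNX1 cannot be told apart. One RUNX1 library name repeats the number of another, and whether this is a typing error is not known.

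Counts were tested in R 4.3.3 with edgeR 4.0.16 (filterByExpr with a minimum count of 10 and a minimum total count of 15, TMM, glmQLFit and glmQLFTest, condition as the only term). The fit was made on all entries, of which 947 were kept, with a biological coefficient of variation of 0.181. Adjusted p-values are Benjamini-Hochberg values over all of these. Ratios and shares were tested in Python 3.11.15 with scipy 1.17.1. The fits were tested on simulated data. DESeq2 1.42.0, RLE factors, library size only, scaling on microRNAs, other count filters, the replicate number as a block, the most abundant microRNA left out and each sample left out were the alternatives.

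Sequences were matched by name, which worked for 2262 of 2576 named microRNA entries. The named microRNAs were the members, the other arms of their hairpins, entries with a member's seed, neighbours within 5 Mb and FOXO-directed microRNAs with a mean of at least 100 CPM, and the 3 microRNAs nearest to each member, with 0.5 added to the CPM before logarithms. The members and lists were chosen with earlier results of these data known.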

Additional observations from a re-analysis of the deposited data

How the results depend on the processing

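The call on miR-96-5p held in each alternative. Its log2 fold change was -0.88 with RLE factors and with DESeq2, and -0.87 with no filter beyond 1 count. It was -0.95 with at least 10 counts in every sample, -1.17 with scaling on microRNAs only and -1.69 with library size only. RLE factors and DESeq2 turned miR-183-3p to 0.05, and scaling on microRNAs only turned miR-183-5p to -0.17 and miR-182-5p to -0.03, none of them called. Library size only changed these members most, to -0.69 for miR-183-5p, -0.73 for miR-183-3p and -0.54 for miR-182-5p, all called lower, and turned miR-362-5p to -0.69, miR-1307-5p to -0.71, miR-615-5p to -0.59, miR-98-5p to -0.54 and miR-151a-3p to -0.56. With 1 sample left out, miR-96-5p ranged from -1.05 to -0.71, miR-183-5p from -0.06 to 0.25, miR-183-3p from -0.10 to 0.11 and miR-182-5p from 0.11 to 0.24, with 1 member called lower each time. The log2 ratio of miR-96-5p to miR-183-5p ranged from -1.10 to -0.92, that of miR-182-5p to miR-96-5p from 0.86 to 1.33, and the share of the cluster from -3.13 to -2.48 percentage points. Ratios near 0 changed sign. Leaving out samples gave -0.10 to 0.28 for miR-182-5p to miR-183-5p, -0.15 to 0.15 for miR-183-3p to miR-183-5p and -0.79 to 0.0126 for miR-96-3p to miR-96-5p. The number of altered microRNAs ranged from 314 to 371 with 1 sample left out. It was 226 of 385 tested with at least 10 counts in every sample. With no filter beyond 1 count it was 465 of 1559 tested, beside 335 of 598 in the main fit.

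No shared deviation of samples with the same replicate number was seen, with correlations of -0.03, -0.09 and 0.02. With 3 samples per group this cannot show whether the samples were prepared in pairs. With the replicate block the log2 fold change was -0.995 for miR-96-5p, 0.01 for miR-183-5p, -0.03 for miR-183-3p and 0.15 for miR-182-5p, and 334 microRNAs were altered.

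RUNX1 replicate 3 stood apart, and miR-183-5p passed the P-value, though not the fold, without it (edgeR, adjusted p = 0.0203), so that a small change of miR-183-5p depends on that library. The permutation tests could not pass 0.05. The counts of miR-96-3p and miR-1271-5p were low.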
